A study of Mus musculus with 12 samples.

Results

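The genes described here are 48 genes of DNA replication and nucleotide synthesis, from the proteins that mark origins to the enzymes that make deoxynucleotides; genes of mitosis are not among them. They were found on the array by RefSeq accession, and 47 of the 48 were matched, out of 17016 genes on the array. Gins1 was not matched and has no value here. All 47 matched genes were well above background on all 12 arrays.

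The series compared mouse embryonic fibroblasts that lack focal adhesion kinase (FAK, encoded by Ptk2; the KO line) with the FAK rescue line, which is the single clone DA2. Each line was seeded sparsely, at 410000 cells in a 10 cm dish, or densely, at 8200000 cells, and was harvested after 24 h. Each of the 4 groups had 3 cultures, 1 on each of 3 experimental days. All cultures were kept in DMEM with Glutamax and 10% FBS, and the rescue medium also held hygromycin B and non-essential amino acids, so that line and medium cannot be told apart. RNA from each culture was labelled with Cy3 and hybridised to 1 Agilent array. Levels are log2 intensity minus the array's 75th percentile, and 1 unit is a 2-fold difference.

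A cell copies its DNA once per division. The origin recognition complex, CDC6 and CDT1 load the ring of MCM2 to MCM7 onto origins before S phase, and MCM10, CDC45 and GINS turn it into a moving helicase. DNA polymerases with the PCNA clamp then copy the strands, while ribonucleotide reductase and thymidylate synthase supply the building blocks. Many of these genes are transcribed under the control of E2F factors as cells enter S phase, and normal fibroblasts leave the cycle when they become crowded.

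The 75th percentile of the arrays lay between 294 and 1594 intensity units, and the arrays of a group correlated with each other at 0.982 or more across genes. Ptk2 was measured by 2 probes that differed. KO minus rescue on one was -0.11 when sparse and -0.07 when dense (adjusted p of 0.648 and 0.763, limma over all probes). On the other it was -2.08 and -0.93 (0.000167 and 0.021). Where the probes lie relative to the deleted part is not given in the sources used here, so that Ptk2 does not check the labels. A marker was tested only where it was well above background on all arrays of some group, so that this filter partly sets the counts here. Of 12 fibroblast markers listed, Thy1 did not pass the filter and Lum passed it in dense rescue cultures only. Of the 11 tested, 10 or 11 were well above background on all arrays of each group, among them Col1a1, Col1a2 and Vim. Their summed linear level was 959.4 to 1419 times the 75th percentile in rescue cultures and 446.6 to 606.8 in KO cultures. Pdgfrb had mean levels of 3.77 (sparse) and 5.10 (dense) in rescue against -3.79 and -1.27 in KO cultures. Dcn went the other way, at 1.24 (sparse) and 5.79 (dense) in rescue against 6.01 and 6.20 in KO cultures. Means of Pdgfra and Fn1 were higher in KO cultures when sparse and lower when dense. The 5 mesothelial markers tested were well above background on all KO arrays, while Upk3b, Wt1 and Lrrn4 were not on any rescue array. Msln went the other way, with mean levels of 5.01 and 4.86 in sparse and dense rescue and 3.70 and 3.20 in KO cultures, and makes up most of the rescue sum. The summed level of the 5 was 74.6 to 83.7 times the 75th percentile in KO cultures and 23.2 to 41.8 in rescue cultures. The summed level of the 5 epithelial markers tested was 101 to 148.4 in KO cultures, 4.89 to 6.90 in sparse rescue cultures and 1.47 to 1.81 in dense ones. Most of it came from keratin genes, while Epcam was not well above background on all arrays of any group. Cdh1 went the other way, with means of -5.32 (sparse) and -4.29 (dense) in rescue against -6.33 and -6.52 in KO cultures. Krt8 was close between the lines when sparse, at 2.00 in rescue and 1.92 in KO cultures. The endothelial genes Pecam1 and Cdh5 and the leukocyte genes Ptprc and Adgre1 were not well above background on all arrays of any group. The endothelial markers tested, Kdr and Tek, summed to 0.094 or less. Kdr was well above background on all 3 dense rescue arrays and Tek on all 3 dense KO arrays, and on no array of the other groups.

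The deposited value table did not follow the scanner files on day 3. Each of its 4 columns for that day correlated most with the scanner file of the other line at the same density (Spearman's rho 0.991 to 0.995 across probes, against 0.828 to 0.865 with its own), while the other 8 columns matched their own files at 0.991 to 0.998. Results below rest on the scanner files as labelled. In these, the day 3 rescue arrays correlated across genes with their own group at 0.9818 or more and with any other group at 0.9488 at most. For the day 3 KO arrays these values were 0.9824 or more and 0.9814 at most. In the fit of the table as labelled, 0 members passed in any comparison. Over days 1 and 2 only, where both sources have the same labels, the scanner files and the table gave medians over members in the same direction as below for all 5 comparisons.

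Nearly the whole set was lower at the dense seeding in the rescue line. In dense rescue cultures 46 of the 47 genes fell relative to sparse ones, 0 rose and 1 (Slbp) did not pass the test; of the 12437 genes tested, 21% were called lower and 19% higher. The median change over the 47 genes was -1.56 (log2), against -0.08 over all genes tested. At least 2-fold falls were called for 41 of the 47, against 1467 of all 12437 genes tested. Of the 47, 15 fell at least 4-fold, a share not computed over all genes. Differences are given ± the standard error (SE) of a limma fit over all 12 arrays, with p-values adjusted over all genes tested; a gene is called where the adjusted p is below 0.05. Because the cultures of a group come from different days, the p-values measure the spread between such cultures. The groups did not overlap for 46 genes, against 26.3% of all genes with dense below sparse. The median over members was -1.39 on day 1, -1.88 on day 2 and -1.78 on day 3, and each of the 46 genes fell on all 3 days. Scaled instead to 6 spike-in probes, which shifted all genes by 0.72, the members' median was -0.84 and 16 were called lower; relative to all genes it was -1.48. With normexp background correction 41 were called lower, and Cdt1, Gins4, Rfc2, Rpa3 and Rrm1 were not. In bulk RNA, fewer cells that express a gene and less RNA per cell cannot be told apart.

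In the KO line the same dense seeding gave 0 calls among the 47 genes (limma), against 10.9% of all genes. Of the 47, 7 passed an unadjusted limma p under 0.05, of which 5 were higher and 2 lower. The median change was 0.09, against 0.00 over all genes, and the changes lay between -0.50 (Chaf1a) and 0.78 (Pole2). The groups did not overlap for 13 genes with dense above sparse and for 3 with dense below, against 19.1% of all genes in each direction. Under spike-in scaling, which shifted all genes by 3.07 here, all 47 genes were called higher (median 3.16, or 0.09 relative to all genes); in the other alternatives at most 2 were called. The difference between the lines in their response to density was tested as an interaction. It was called for 39 of the 47 genes, each with the higher value in KO, and 0 had the lower value; 11.3% of all genes were called higher and 9.46% lower. The median interaction was 1.85. With normexp correction 29 were called.

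**Figure D1:**
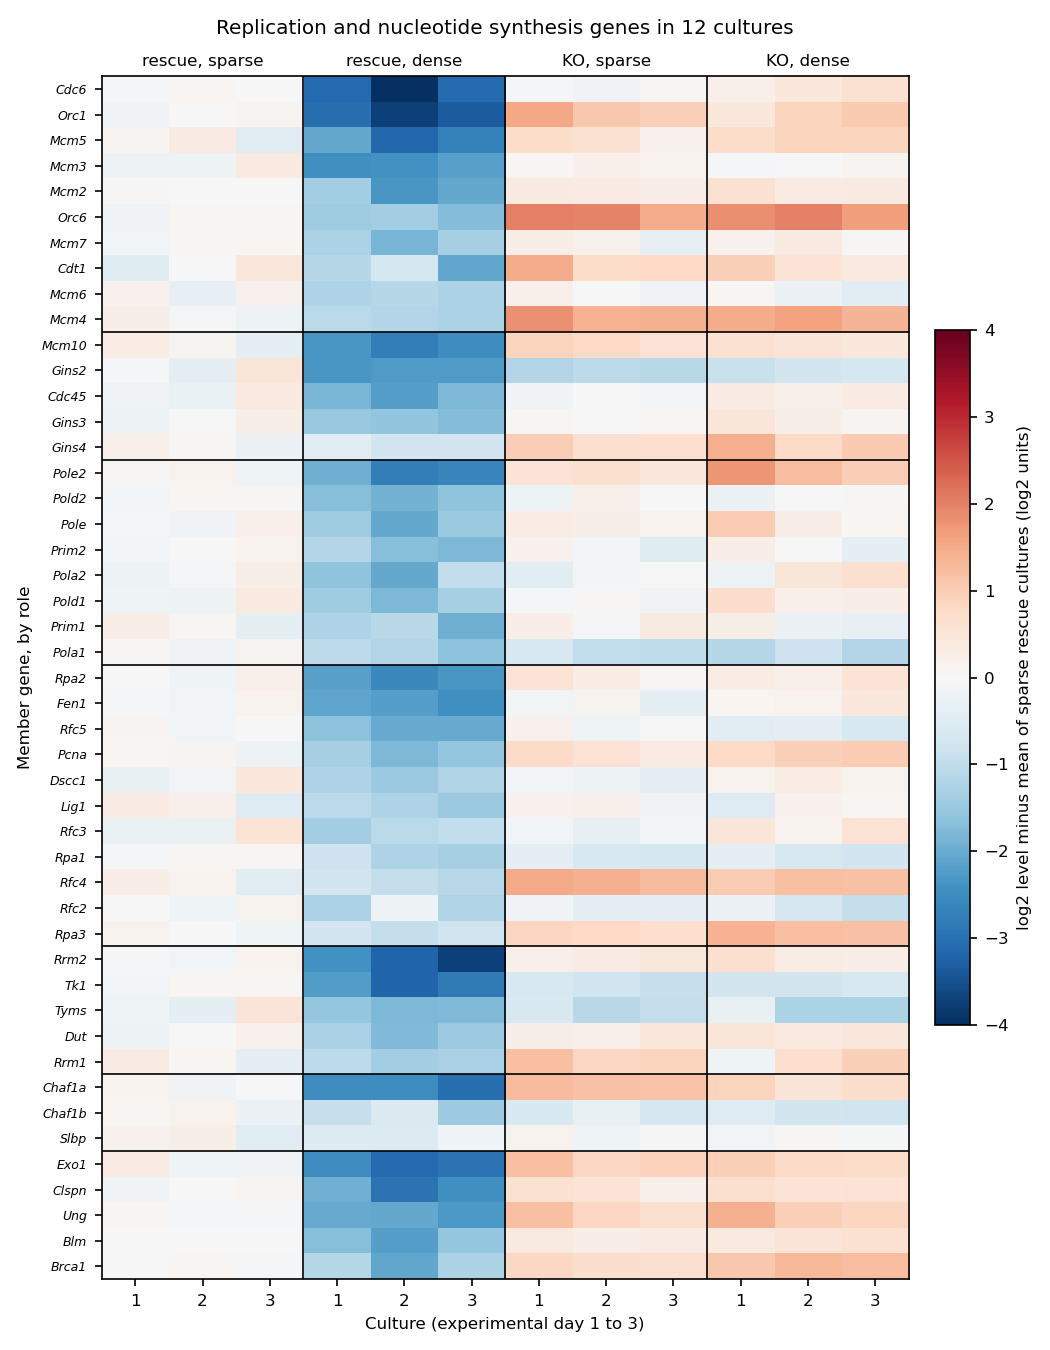
Heat map of the log2 level of the 47 genes (rows, by role) in the 12 cultures (columns, by group and day), relative to the mean of the 3 sparse rescue cultures. The 3 dense rescue columns are blue in nearly every row, and the KO columns are not separated by density.

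Dense rescue cultures had the lowest group mean for 47 of 47 genes, which was so for 36.6% of all genes tested. In 43 of the 47, all 3 dense rescue cultures lay below the 9 others, and the exceptions were Pola1, Rfc2, Chaf1b and Slbp. How many of all genes tested show this pattern was not computed. The order of the other 3 groups was not shared. The highest mean was that of dense KO cultures for 24 genes (51.1%), sparse KO for 12 (25.5%) and sparse rescue for 11 (23.4%). Over all genes tested these shares were 24.2%, 24.9% and 20.8%. The median level over the 47 genes was 2.88 ± 0.13 (SD, n = 3) in sparse rescue, 1.16 ± 0.20 in dense rescue, 3.20 ± 0.13 in sparse KO and 3.20 ± 0.16 in dense KO cultures.

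Cdc6 and Orc1, both of origin licensing, had the largest falls of the set. All 10 origin licensing genes fell in dense rescue cultures, with a median of -1.71, and 0 of 10 passed in the KO line. Cdc6, which recruits the MCM ring to origins, read 1.01, 1.14 and 1.05 in sparse rescue cultures on days 1 to 3 and -2.05, -2.97 and -2.04 in dense ones. In KO cultures Cdc6 read 1.00, 0.93 and 1.10 when sparse and 1.28, 1.50 and 1.67 when dense. The dense rescue cultures stood alone, and the other 9 lay within a range of 1 unit. Cdc6 fell by 3.42 ± 0.24 in rescue cells, a 10.7-fold difference (adjusted p = 2.43e-06), and its second probe fell by 3.30 in the fit of all probes. Orc1, the ATPase subunit of the origin recognition complex that varies with the cycle in many cells, fell by 3.35 ± 0.24 (10.2-fold), while its partner Orc6 fell by 1.52 ± 0.19.

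The 6 MCM ring subunits fell by unequal amounts. Mcm5 fell by 2.63 ± 0.28 and Mcm3 by 2.36 ± 0.19, and Mcm2 and Mcm7 fell by 1.91 and 1.50. Mcm6 and Mcm4 fell least, by 1.21 and 1.17. Mcm4 read 5.03, 4.77 and 4.60 in sparse rescue cultures and 3.73, 3.64 and 3.52 in dense ones, against 6.62, 6.20 and 6.22 in sparse KO and 6.29, 6.40 and 6.17 in dense KO cultures. So both KO groups lay above both rescue groups for Mcm4, with no overlap. Cdt1, the loading partner of CDC6, had the widest spread of any member in dense rescue cultures, at 3.23, 3.67 and 2.30. Its fall of 1.31 ± 0.36 (adjusted p = 0.0128) was not called without the sparse rescue culture of day 3 (adjusted p = 0.0528), nor over days 1 and 2 alone.

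Helicase activation genes fell in 5 of 5 measured members, with a median of -1.95. Mcm10, needed to start unwinding, read 3.37, 3.17 and 2.68 in sparse and 0.74, 0.32 and 0.59 in dense rescue cultures, and lay between 3.50 and 3.98 in all 6 KO cultures. It fell by 2.52 ± 0.20 (adjusted p = 5.4e-06). Cdc45, the helicase cofactor, fell by 1.95 ± 0.20 and the GINS subunits Gins2 and Gins3 by 2.28 ± 0.21 and 1.61 ± 0.17. Gins4, another subunit of that complex, read 2.00, 1.84 and 1.58 in sparse and 1.39, 1.04 and 1.05 in dense rescue cultures, against 2.78, 2.44 and 2.48 in sparse and 3.26, 2.61 and 2.84 in dense KO cultures. It fell by 0.65 ± 0.21 (adjusted p = 0.0272), the least of the called genes. The call for Gins4 was lost without the sparse rescue culture of day 1 or day 2, or the dense one of day 2 or day 3, with values of -0.55 to -0.63.

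Polymerase and primase genes fell in 8 of 8 members, with a median of -1.56. Pole2, the second subunit of the leading strand polymerase epsilon, read 0.50, 0.60 and 0.29 in sparse and -1.49, -2.31 and -2.19 in dense rescue cultures. In KO cultures Pole2 read 1.01, 1.11 and 0.91 when sparse and 2.23, 1.70 and 1.45 when dense. It fell by 2.46 ± 0.25 in rescue cells and gave 0.78 ± 0.25 in KO cells, where the groups did not overlap but the test was not passed (adjusted p = 0.0658; 0.0375 with the day as a block). The catalytic subunit gene Pole fell by 1.66 ± 0.25, and the polymerase delta genes Pold1 and Pold2 by 1.52 ± 0.21 and 1.73 ± 0.17. The primase genes Prim1 and Prim2 fell by 1.44 and 1.56. Pola1, the catalytic subunit of polymerase alpha, read 2.73, 2.54 and 2.82 in sparse and 1.64, 1.53 and 1.04 in dense rescue cultures. Its KO cultures, at 2.07, 1.73 and 1.69 when sparse and 1.55, 1.88 and 1.51 when dense, lay near the dense rescue level. Pola1 fell by 1.29 ± 0.20 in rescue cells (adjusted p = 0.000405), while the other subunit gene, Pola2, fell by 1.55 ± 0.29.

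Clamp, clamp loader, strand binding and joining genes fell in 11 of 11 members, with a median of -1.26. Rpa2, a subunit of the single-strand binding protein RPA, read 1.63, 1.49 and 1.86 in sparse and -0.51, -0.92 and -0.65 in dense rescue cultures, and between 1.73 and 2.21 in the KO cultures. Rpa2 fell by 2.36 ± 0.19 (adjusted p = 5.4e-06), Rpa1 by 1.13 ± 0.18 and Rpa3 by 0.84 ± 0.15. Rpa3 read 2.39, 2.27 and 2.07 in sparse and 1.48, 1.29 and 1.43 in dense rescue cultures, against 3.10, 3.04 and 2.92 in sparse and 3.62, 3.46 and 3.40 in dense KO cultures. Its 4 groups did not overlap at all, and dense KO cultures lay highest. The clamp gene Pcna fell by 1.56 ± 0.19, the flap nuclease gene Fen1 by 2.26 ± 0.18 and the ligase gene Lig1 by 1.26 ± 0.26. Of the clamp loader genes, Rfc5 fell by 1.89 ± 0.17, Rfc3 by 1.15 ± 0.24 and Rfc4 by 0.92 ± 0.20, and Dscc1 of the cohesion clamp loader fell by 1.31 ± 0.20. Rfc2 had 1 dense rescue culture, that of day 2, at 4.40, near the sparse cultures, while the others read 3.37 and 3.42. Its fall of 0.89 ± 0.28 (adjusted p = 0.0235) was lost without the sparse or the dense rescue culture of day 3 or of day 1, with values down to -0.71; on its second probe the fall was 1.05 (adjusted p = 0.00137 over all probes).

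Nucleotide supply genes fell in 5 of 5 members, with a median of -1.71. Rrm2, the regulated subunit of ribonucleotide reductase, read 2.44, 2.37 and 2.63 in sparse and 0.04, -0.71 and -1.24 in dense rescue cultures, against 2.69, 2.82 and 2.94 in sparse and 3.13, 2.78 and 2.76 in dense KO cultures. Rrm2 fell by 3.12 ± 0.27 (adjusted p = 1.02e-05). The large subunit gene Rrm1 read 4.40, 4.15 and 3.68 in sparse and 3.03, 2.69 and 2.78 in dense rescue cultures, and fell by 1.24 ± 0.28. Rrm1 read 5.29, 4.91 and 4.98 in sparse KO cultures and 3.91, 4.73 and 5.03 in dense ones, so that its dense KO culture of day 1 overlapped the sparse rescue level. The thymidine kinase gene Tk1 fell by 2.76 ± 0.22, the thymidylate synthase gene Tyms by 1.71 ± 0.29 and the dUTPase gene Dut by 1.51 ± 0.17.

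Of the 3 genes of chromatin assembly and histone mRNA, 2 fell. Chaf1a, the large subunit of chromatin assembly factor 1, read 2.60, 2.31 and 2.45 in sparse and -0.02, -0.04 and -0.56 in dense rescue cultures, against 3.72, 3.63 and 3.61 in sparse and 3.34, 2.96 and 3.14 in dense KO cultures. It fell by 2.66 ± 0.19 in rescue cells (adjusted p = 2.5e-06), and its KO groups did not overlap either, at -0.50 ± 0.19 (adjusted p = 0.109). Its partner Chaf1b fell by 0.99 ± 0.23. Slbp, which binds the end of histone mRNAs, read 3.74, 3.82 and 3.15 in sparse and 3.02, 3.03 and 3.40 in dense rescue cultures, and 3.41 to 3.72 in the KO cultures. The rescue groups overlapped, and dense minus sparse in rescue cells was -0.42 ± 0.20 (adjusted p = 0.122), with -0.72, -0.79 and 0.25 on the 3 days.

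Fork checkpoint and repair genes fell in 5 of 5 members, with the largest median of the 7 roles, -2.11. Exo1, a DNA exonuclease of mismatch repair and resection, read 2.58, 2.07 and 2.12 in sparse and -0.25, -0.85 and -0.71 in dense rescue cultures, against 3.46, 3.08 and 3.18 in sparse and 3.21, 3.02 and 3.0 in dense KO cultures. Exo1 fell by 2.86 ± 0.21 (adjusted p = 3.11e-06). The checkpoint adaptor gene Clspn fell by 2.45 ± 0.23, the uracil glycosylase gene Ung by 2.11 ± 0.20 and the helicase gene Blm by 1.83 ± 0.18. Brca1, of homologous recombination, fell least of the 5, by 1.50 ± 0.22. It read 1.10, 1.19 and 1.07 in sparse and -0.02, -0.96 and -0.15 in dense rescue cultures, against 1.96, 1.82 and 1.75 in sparse and 2.21, 2.45 and 2.36 in dense KO cultures.

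**Figure D2:**
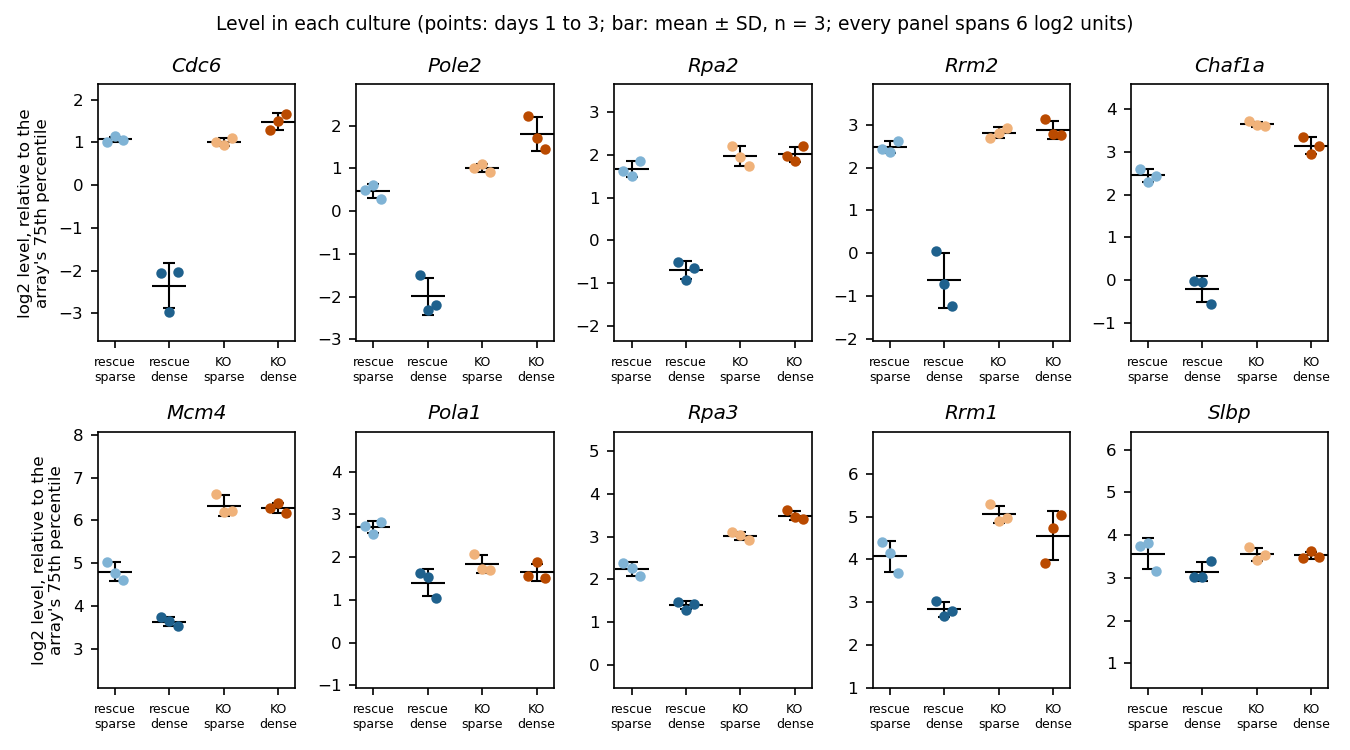
Level of 10 genes in each culture (points, days 1 to 3 from left to right; bar, mean ± SD, n = 3), as log2 intensity relative to the array's 75th percentile; the upper gene of each column is the one with the largest and the lower the one with the smallest fall of its role. Dense rescue cultures lie apart from the others in the upper panels; for Pola1 they lie below the sparse rescue cultures and overlap the dense KO ones, and for Slbp they overlap the sparse rescue ones.

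Some subunits of one complex fell by unequal amounts in the rescue line, while others were close, as with Prim1 (-1.44) and Prim2 (-1.56), Pold1 (-1.52) and Pold2 (-1.73), and Pola1 (-1.29) and Pola2 (-1.55). The unequal pairs named next were picked for their gap after their values were seen, and probes of different genes can differ in how they compress a change. Rrm2 fell further than Rrm1 on all 3 days, with a gap of -1.02, -1.62 and -2.98. Chaf1a fell further than Chaf1b by a nearly constant -1.61, -1.65 and -1.77. Rpa2 against Rpa3 gave gaps of -1.23, -1.43 and -1.88, and Orc1 against Orc6 gave -1.58, -2.30 and -1.63. For Gins2 against Gins4 the gaps were -1.62, -1.07 and -2.21, and for Mcm5 against Mcm4 they were -0.87, -2.34 and -1.19.

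**Figure D3:**
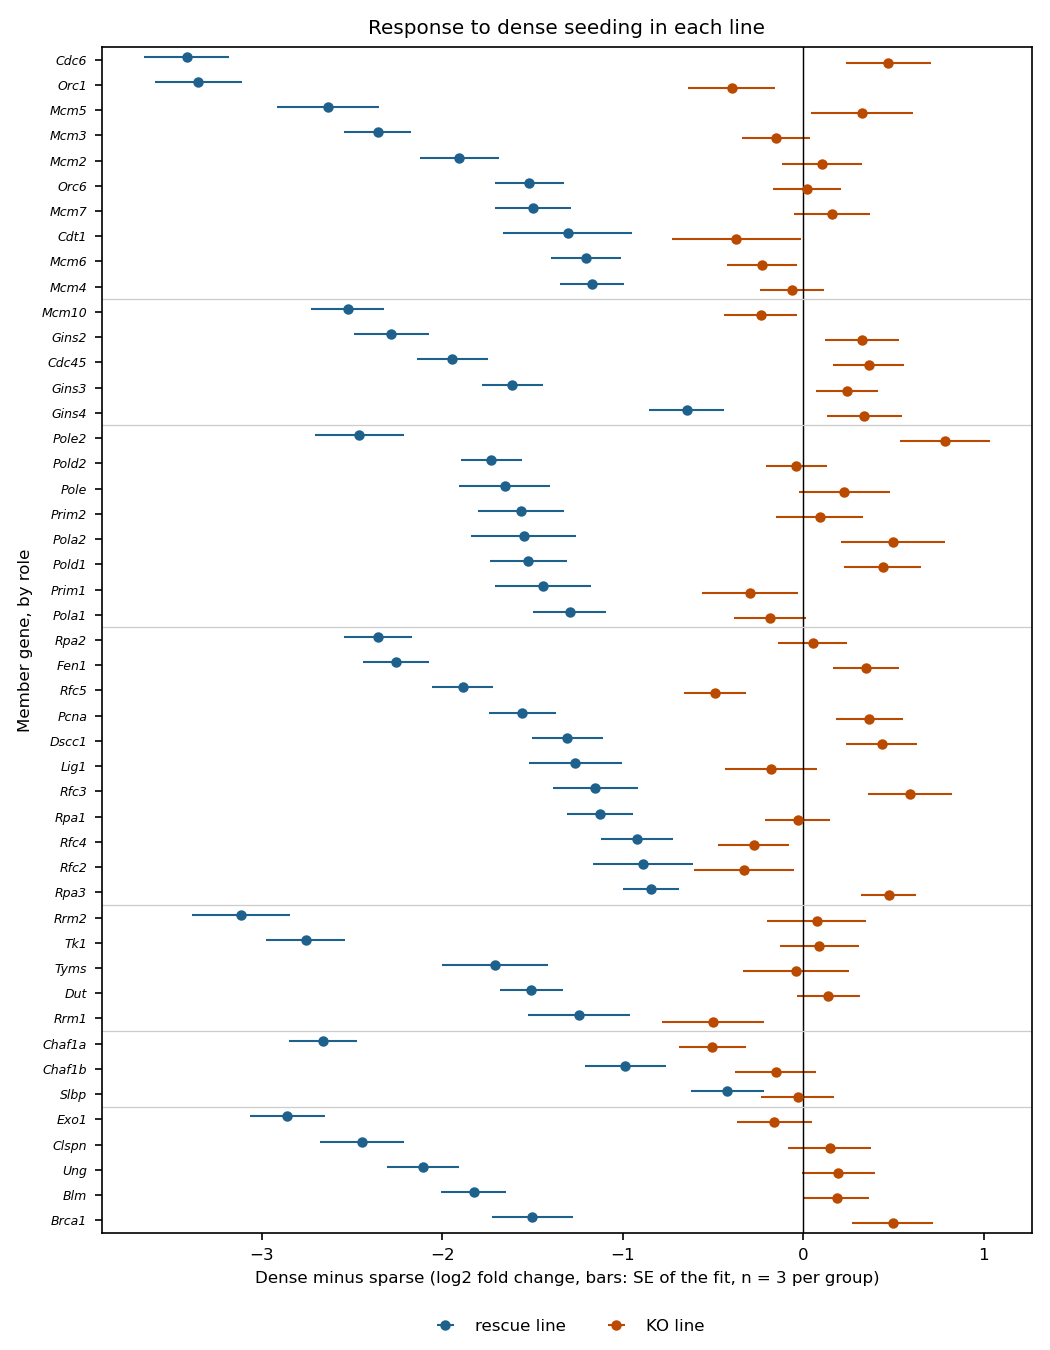
Dense minus sparse (log2 fold change, x axis) of each of the 47 genes in the rescue line (blue) and in the KO line (orange); bars are the SE of the fit (n = 3 cultures per group). The rescue values lie between -3.42 and -0.42 and the KO values between -0.50 and 0.78.

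The interaction put a test on that contrast for each gene. It was largest for Cdc6 (3.89 ± 0.33, adjusted p = 4.78e-05), Pole2 (3.24 ± 0.35, adjusted p = 0.000169) and Rrm2 (3.19 ± 0.39, adjusted p = 0.000318). It was not passed for Cdt1 (0.93), Prim1 (1.15), Rfc2 (0.56), Rfc4 (0.65), Lig1 (1.09), Rrm1 (0.74), Chaf1b (0.83) and Slbp (0.39). With the day as a block Prim1 (adjusted p = 0.0325), Lig1 (adjusted p = 0.0444) and Chaf1b (adjusted p = 0.0423) passed too. The calls for Mcm6 (0.98, adjusted p = 0.0272) and Gins4 (0.98, adjusted p = 0.0348) were the least stable. That for Mcm6 was lost when any of 7 single cultures was left out and that for Gins4 when any of 8 was, with values of at least 0.84 and 0.81; the cultures are the sparse rescue ones of days 1 and 3, the dense rescue one of day 1, the sparse KO ones of days 2 and 3 and the dense KO ones of days 1 and 2 for Mcm6, and the sparse rescue ones of days 1 and 2, the dense rescue ones of days 2 and 3, the sparse KO ones of days 2 and 3 and the dense KO ones of days 1 and 3 for Gins4. In the KO line the second probe of Dscc1 did pass, at 0.93 (adjusted p = 0.0118 over all probes), while the first gave 0.43.

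At the dense seeding KO cultures had more of nearly every transcript of the set than rescue cultures. Of the 47 genes, 43 were higher in dense KO cultures, 0 were lower and 4 did not pass, while 31.9% of all genes tested were called higher and 29.7% lower. The median difference was 2.06, against 0.08 over all genes. At least 2-fold higher levels were called for 41 of the 47, against 2731 of all 12437 genes tested. Of the 43, 24 were at least 4-fold higher, a share not computed over all genes. The groups did not overlap for 44 genes with KO above rescue, against 34.7% of all genes. This comparison shares the dense rescue cultures with the response to dense seeding above, so that both rest on the same low values. The largest differences were in Orc1 (4.14 ± 0.24, 17.7-fold, adjusted p = 3.27e-08), Cdc6 (3.83 ± 0.24, 14.3-fold, adjusted p = 5.32e-08) and Pole2 (3.79 ± 0.25, 13.8-fold, adjusted p = 9.34e-08). Those that did not pass were Pola1 (0.24 ± 0.20, adjusted p = 0.319), Rfc2 (0.27 ± 0.28, adjusted p = 0.423), Chaf1b (0.30 ± 0.23, adjusted p = 0.264) and Slbp (0.38 ± 0.20, adjusted p = 0.129). The second probe of Rfc2 passed, at 0.71 (adjusted p = 0.00729 over all probes), and Rfc2 also passed without the dense rescue culture of day 2 (0.60, adjusted p = 0.0388).

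The lines shared a slide on day 2 only, where the median difference at the dense seeding was 2.23; on days 1 and 3 each slide held 1 line, so that slide and line cannot be told apart there. Each of the 43 called genes was higher in KO on all 3 days. The calls for Rpa1 (0.54 ± 0.18, adjusted p = 0.0223) and Tyms (0.76 ± 0.29, adjusted p = 0.0399) were lost with the slide as a fixed block (not as a random one), normexp correction or median scaling, as were those for Prim1 and Lig1 with normexp, and when 1 culture was left out: for Rpa1 the dense rescue one of day 2 or 3 or the dense KO one of day 1 (0.44 to 0.49), and for Tyms any dense rescue one, the dense KO one of day 1 or the sparse KO one of day 3 (0.44 to 0.84). The marker levels that also differ between the lines, given above, stand beside this result, and their part in it was not tested.

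At the sparse seeding the lines differed in a smaller part of the set and in both directions. In sparse KO cultures 14 of the 47 genes were higher, 5 lower and 28 did not pass; 23.2% of all genes tested were called higher and 25.6% lower. The median was 0.18, against 0.03 over all genes. The groups did not overlap for 20 genes with KO above rescue and for 6 with KO below, against 28.9% and 30% of all genes. On the day 2 slide shared by the lines the median was 0.28, and each of the 19 called genes kept its direction on all 3 days.

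Among the higher genes the differences were largest for Orc6 and Mcm4, both of origin licensing. Orc6 was higher by 1.82 ± 0.19 (adjusted p = 7.32e-06), reading 6.23, 6.21 and 5.70 in sparse KO and 4.10, 4.28 and 4.28 in sparse rescue cultures. Mcm4 was higher by 1.55 ± 0.18, Orc1 by 1.19 ± 0.24 and Cdt1 by 1.00 ± 0.36 (adjusted p = 0.036). The others higher were Mcm10, Gins4, Pcna, Rfc4 (1.41 ± 0.20), Rpa3, Rrm1, Chaf1a (1.20 ± 0.19), Brca1, Exo1 and Ung. These 14 were all higher in dense KO cultures too. The 7 roles differed in count: 4 of 10 licensing genes and 3 of 5 fork checkpoint genes were higher, against 0 of 8 polymerase and primase genes; that difference between roles was not tested.

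The 5 genes lower in sparse KO cultures came from 4 roles. Gins2 read 1.82, 1.97 and 1.91 in sparse KO cultures against 2.93, 2.60 and 3.49 in sparse rescue ones, a difference of -1.11 ± 0.21 (adjusted p = 0.000812). Tyms, at -0.90 ± 0.29, and Tk1, at -0.79 ± 0.22, both serve the supply of thymidine nucleotides, by synthesis and by salvage. Pola1 differed by -0.87 ± 0.20 and Rpa1 by -0.56 ± 0.18 (adjusted p = 0.0238 by limma). Gins2, Rpa1, Tyms and Tk1 were lower in KO when sparse and higher in KO when dense, so that the sign of the difference between lines depended on density for these 4. None of these 4 was called between the densities in KO cells. Tk1 read 4.05, 3.87 and 3.76 in sparse and 3.94, 3.95 and 4.05 in dense KO cultures. In rescue cultures Tk1 read 4.57, 4.75 and 4.71 when sparse and 2.44, 1.48 and 1.84 when dense. Gins2 differed by 0.33 between the KO densities (adjusted p = 0.337, limma), and its KO groups did not overlap. Tyms ranged from 3.74 to 4.71 in dense KO cultures.

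**Figure D4:**
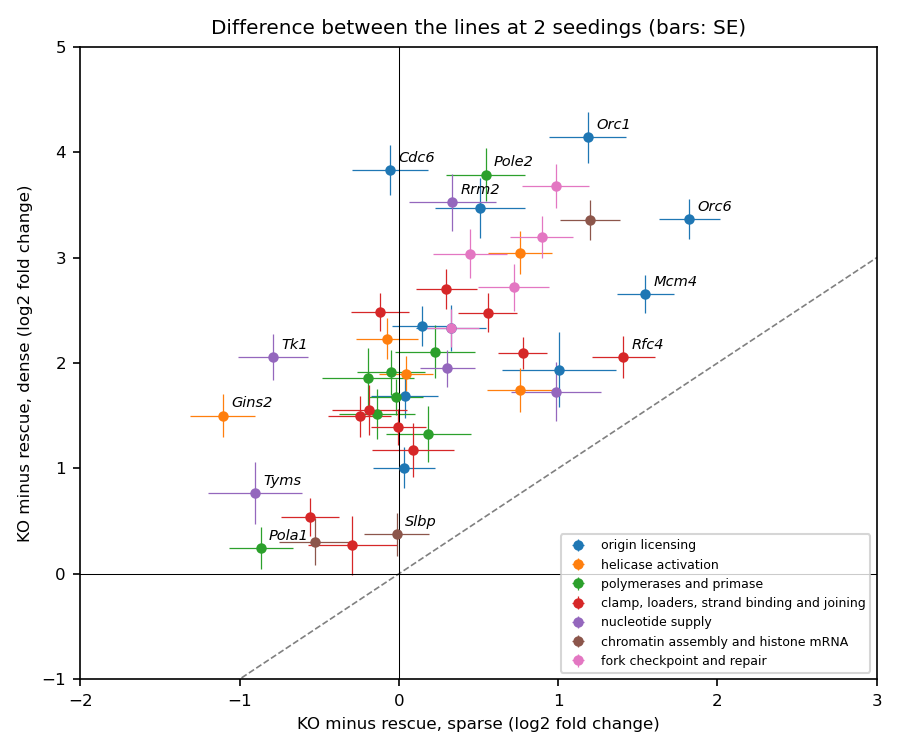
KO minus rescue (log2 fold change) of the 47 genes in sparse (x axis) and in dense cultures (y axis), coloured by role; bars are the SE of the fit and the dashed line marks equal differences. Every gene lies above the dashed line, with dense differences up to 4.14 (Orc1) and sparse ones from -1.11 (Gins2) to 1.82 (Orc6).

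Calls at the sparse seeding depended more on single cultures than those of the other contrasts. They were lost for Cdt1 without the sparse rescue culture of day 1 or 2 or the sparse KO one of day 1, for Pcna (0.56) without the sparse rescue one of day 3 or the sparse KO one of day 1 or 2, and for Brca1 (0.72) without the sparse KO one of day 1. They were lost for Rrm1 (0.98) without the sparse rescue culture of day 3, for Tyms without that one or the sparse KO one of day 2 or 3, and for Rpa1 without the sparse rescue or sparse KO culture of day 2 or of day 3. The values when 1 culture was left out were at least 0.76 for Cdt1, 0.44 for Pcna, 0.66 for Brca1 and 0.79 for Rrm1. The direction of the sparse median depended on scaling: arrays centred on their median gave -0.12 and normexp background correction gave -0.018, where the median of all genes was -0.28 and 0.14. With the slide as a fixed block 11 genes were called, with it as a random block 20, and with normexp correction 12. Spike-in scaling shifted all genes by -1.55 and gave a median of -1.36, with 31 genes called lower and 0 higher. With the day as a block Chaf1b (-0.53) also passed as lower (adjusted p = 0.0339).

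Other genes of the same processes were read from lists chosen with earlier results of these data known. Of 38 other replication factors, 29 fell in dense rescue cultures, 0 rose and 9 did not pass, with a median of -1.21. Recql4 (-3.02 ± 0.18), a helicase of replication start, Asf1b (-2.96 ± 0.30), a histone chaperone, and Ticrr (-2.31 ± 0.27), which works in helicase activation, fell most. The origin recognition gene Orc3 gave 0.34 ± 0.20 (adjusted p = 0.206). Of 34 other nucleotide synthesis enzymes tested, 22 were lower and 2 higher, with a median of -1.18. The mitochondrial folate enzyme gene Mthfd2 fell by 3.09 ± 0.25, the CTP synthase gene Ctps by 2.80 ± 0.28 and the deoxycytidine kinase gene Dck by 2.43 ± 0.20, while the second CTP synthase gene, Ctps2, rose by 1.09 ± 0.18 (adjusted p = 0.000508).

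In the KO line these lists had few calls: 1 higher and 0 lower of the 38 replication factors, and 1 higher and 2 lower of the 34 enzymes. Ctps was among the lower ones, at -1.04 ± 0.28 (adjusted p = 0.0343). Mitosis genes, shown for scale, were lower in 28 of 29 and higher in 0 in dense rescue cultures, with a median of -1.90, and 0 of 29 passed in the KO line. The medians of the members, the other replication factors and the mitosis genes in the interaction were 1.85, 1.42 and 1.83, and no test was made between the lists.

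**Figure D5:**
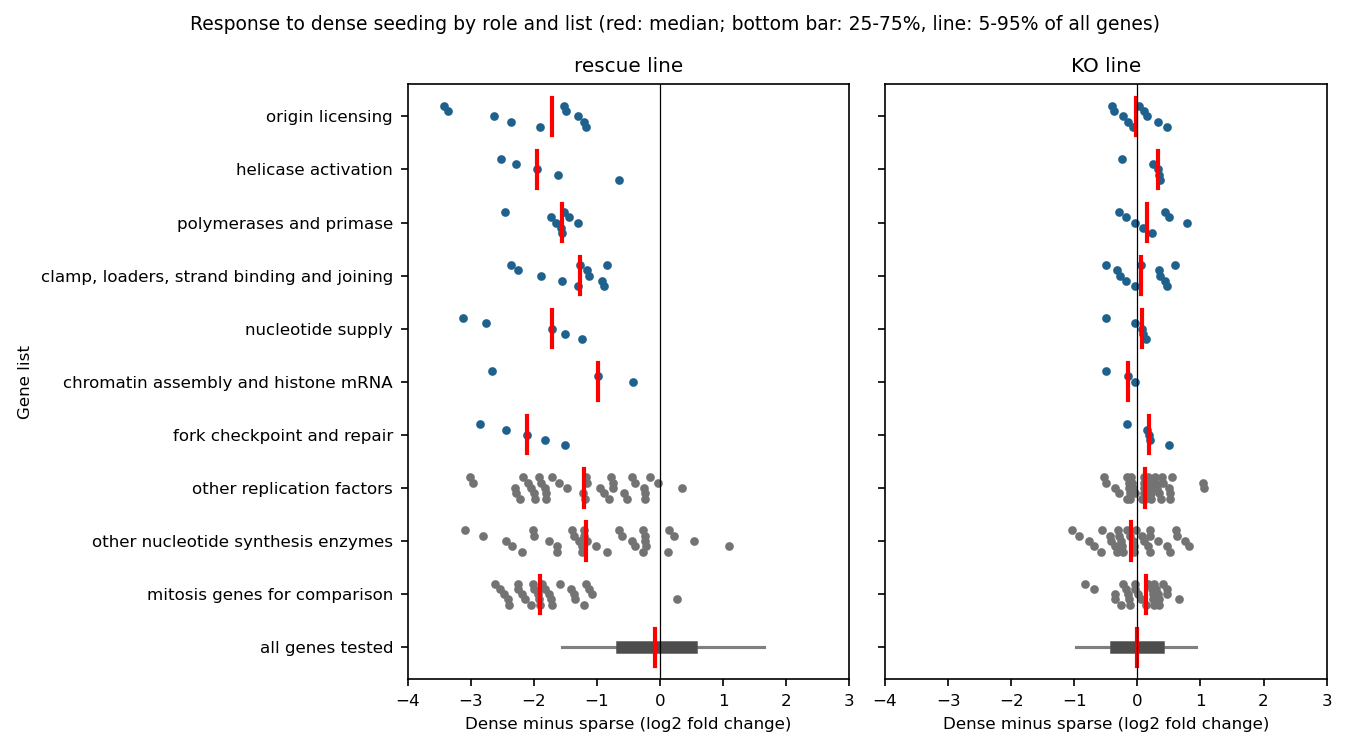
Dense minus sparse (log2 fold change) of each gene of the 7 roles (blue) and of 3 further lists (grey) in the rescue line (left) and KO line (right); red marks are medians, and the bottom row gives the 25th to 75th (bar) and 5th to 95th percentile (line) of the 12437 genes tested. In the rescue line each list median lies below 0, from -2.11 to -0.99, and in the KO line the medians of the 7 roles lie from -0.15 to 0.33.

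Because the members fell together, their promoters were searched for the site that E2F factors are known to bind. RefSeq start sites of GRCm38.p6 gave 44 windows for 39 of the 48 members, each from 250 bases before to 50 bases after the start. The E2F spellings were TTTCCCGC, TTTCGCGC, TTTGGCGC and TTTGCCGC on both strands. These 4 and the other spellings were settled on after several had been tried on these windows. A match was found for 14 of 39 members (35.9%), or in 31.8% of their windows, against 2.26% of all 32851 windows. Matches to TTTCGCGC and TTTGGCGC overlap in Mcm5 and Mcm6, and of the 20 matches 11 begin before the start. Of the other replication factors 33.3% held one, and of the mitosis genes 11.1%. The CHR spelling TTTGAA, known from mitosis genes, was in 74.1% of mitosis genes, 12.8% of members, 18.2% of other replication factors and 20.2% of all genes. CCAAT was in 64.1% of members, 74.1% of mitosis genes, 45.5% of other replication factors and 41.1% of all genes. The GC box GGGCGG was in 74.4%, 81.5%, 81.8% and 38.2%, in the same order. Differences between the lists were not tested. A match is a run of letters and not a bound site, and its absence says nothing of the factor.

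Short stretches around the match are shown for the genes with the largest falls among the 14 members with a match. Rrm2, Exo1, Tk1 and Chaf1a, for which no match was found, fell further than Mcm5. The stretches are given in the direction of the gene, with the matching letters in capitals. The stretches lie at chr11:98908003-98908030 on the + strand (Cdc6, match from position -138 relative to the start), chr4:108579417-108579444 on the + strand (Orc1, from -27), chr8:75109347-75109376 on the + strand (Mcm5, from -153), chr12:69228163-69228190 on the - strand (Pole2, from 11) and chr4:126556991-126557018 on the + strand (Clspn, from 22).
Cdc6: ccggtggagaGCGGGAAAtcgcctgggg
Orc1: tcggttagtgGCGCGAAAagttttctcc
Mcm5: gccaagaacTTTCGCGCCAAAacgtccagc
Pole2: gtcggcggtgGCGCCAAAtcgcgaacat
Clspn: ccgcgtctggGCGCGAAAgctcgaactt
Longer stretches of 170 bases upstream, which no annotated transcript overlaps, are shown for some genes: Gins3 with 1 match (chr8:95633389-95633558, + strand), Mcm6 with 3, of which 2 overlap (chr1:128359706-128359875, - strand), and Slbp with 0 (chr5:33652575-33652744, - strand). Slbp was included by name as the member that did not pass. The stretch of Rfc3, with 1 match, also met the rule and is not shown.
Gins3: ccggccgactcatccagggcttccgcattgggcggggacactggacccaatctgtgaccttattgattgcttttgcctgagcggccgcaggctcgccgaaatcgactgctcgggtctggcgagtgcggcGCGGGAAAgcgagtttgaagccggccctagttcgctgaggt
Mcm6: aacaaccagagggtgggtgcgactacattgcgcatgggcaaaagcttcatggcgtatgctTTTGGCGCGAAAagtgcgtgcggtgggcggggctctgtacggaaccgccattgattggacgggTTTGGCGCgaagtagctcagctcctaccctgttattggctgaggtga
Slbp: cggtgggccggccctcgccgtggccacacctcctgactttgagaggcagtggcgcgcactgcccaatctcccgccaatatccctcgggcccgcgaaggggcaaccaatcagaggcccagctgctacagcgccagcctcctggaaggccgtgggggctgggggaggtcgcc

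Members with a match did not have the larger median fall. The 14 members with one had a median change of -1.57 in dense rescue cultures, from -3.42 (Cdc6) to -1.15 (Rfc3), and the 25 whose windows held none had a median of -1.71, from -3.12 (Rrm2) to -0.42 (Slbp). Rrm2, which fell by 3.12, and Tk1, which fell by 2.76, had none of these spellings in their windows.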

How the data were processed

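Cy3-labelled RNA of 12 cultures was measured, each on its own array. The authors' scanner files come from Feature Extraction 10.5.1.1 and, per the file headers, give a processed intensity for every spot, with the background subtracted. Arrays were not yet on a common scale. In the authors' deposited table values are log2 with column medians near 8.39; its normalisation and centring are not given in the sources used here. Build and positions of probes were not used; genes were named through RefSeq accessions.

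Spots of a probe were averaged and each array's 75th percentile of log2 intensity was subtracted. A probe was kept if some group had it well above background on each unflagged array (25930 of 41174), and the brightest probe stands for a gene, which left 12437 genes. Groups were compared with limma 3.58.1 in R 4.3.3 (lmFit with 1 mean per group over all 12 arrays, eBayes), with Benjamini-Hochberg adjustment over all genes and a threshold of 0.05; the steps were tested on simulated data. The members and lists, and the rule for the genes shown by culture (in each role the largest and the smallest change in rescue cells, and genes that break with the rest), were chosen with earlier results of these data known.

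The replicate number is the experimental day named in the labels, so numbers pair cultures of one day. As a check, deviations from group means correlated between -0.04 and 0.30 over the 18 same-day pairs, with 11 above 0.1. Alternatives were the day as a block, the slide as a fixed or random block, normexp correction (offset 50, on median signals), other scalings, other filters, all probes of a gene, the deposited table and leaving out each array; the use of days 1 and 2 alone was chosen after seeing the data. No depth applies to arrays, and their number limits the precision.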

Additional observations from a re-analysis of the deposited data

Results flagged for a closer look

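The response to density differed between the lines for 39 genes by the interaction term of the limma fit, and each value below is dense minus sparse in KO cells minus the same in rescue cells (log2). Among origin licensing genes these were Orc1 (2.96), Orc6 (1.54), Cdc6 (3.89), Mcm2 (2.01), Mcm3 (2.21), Mcm4 (1.11), Mcm5 (2.96), Mcm6 (0.98) and Mcm7 (1.65). For helicase activation they were Mcm10 (2.29), Cdc45 (2.31), Gins2 (2.61), Gins3 (1.85) and Gins4 (0.98). Of the polymerase and primase genes, the interaction passed for Pola1 (1.11), Pola2 (2.05), Prim2 (1.65), Pold1 (1.96), Pold2 (1.69), Pole (1.88) and Pole2 (3.24). Clamp, loader, strand binding and joining genes that differed were Pcna (1.92), Rfc3 (1.74), Rfc5 (1.40), Dscc1 (1.74), Rpa1 (1.09), Rpa2 (2.41), Rpa3 (1.32) and Fen1 (2.60). In nucleotide supply the values were those of Rrm2 (3.19), Tyms (1.67), Tk1 (2.85) and Dut (1.65). The 1 chromatin assembly gene was Chaf1a (2.16). All 5 fork checkpoint and repair genes differed, namely Brca1 (2.00), Blm (2.01), Exo1 (2.70), Clspn (2.59) and Ung (2.30).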

How the results depend on the processing

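Medians over members kept their direction in dense minus sparse of rescue cells, in KO minus rescue of dense cells and in the interaction under each alternative run. Where a value below moved, the cause was not tested. With the slide as a fixed block, 11 members passed in sparse KO minus rescue (median 0.35). Normexp gave 12 and -0.018 there, 1.72 in dense KO minus rescue and 1.60 in the interaction. Median scaling gave -0.12, and 0.34 with 2 calls in KO density and 2.10 in the interaction; quantile scaling gave 0.18 and 2 calls in KO density. Spike-in scaling (6 probes) shifted all genes by -1.55 in sparse and 0.80 in dense KO minus rescue, 0.72 in rescue density, 3.07 in KO density and 2.35 in the interaction. It gave members medians of -1.36 (31 called), 2.86, -0.84 (16 called), 3.16 (47 called) and 4.20, which relative to all genes were 0.16, 1.98, -1.48, 0.09 and 1.81, against 0.16, 1.98, -1.48, 0.09 and 1.81 with 75th percentile scaling. Under it sparse KO minus rescue turned to -0.36 for Orc1, -0.54 for Cdt1, -0.79 for Mcm10 and Gins4, -0.99 for Pcna, -0.14 for Rfc4, -0.77 for Rpa3, -0.56 for Rrm1 and Exo1, -0.35 for Chaf1a, -0.83 for Brca1 and -0.65 for Ung, and density gave 0.076 for Gins4 in rescue and 2.57 for Chaf1a in KO.

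The deposited table as labelled, with its day 3 columns at odds with the scanner files, called 0 members in each comparison; its medians were 0.65 in dense KO minus rescue, -0.94 in rescue density, -0.53 in KO density and 0.46 in the interaction, and sparse KO minus rescue was -0.04 for Rrm1 and 0.047 for Tyms, with 0 for Lig1 when dense. Over days 1 and 2 the table gave 1.83 (dense) and 0.15 (KO density), and the scanner files 12 calls and 0.31 in sparse KO minus rescue. In KO density 1 member passed with the day as a replicate block or with probes above background on all arrays, and 2 with the slide as a random block or the mean of all kept probes. Within the day 2 slide medians were 2.23 (dense), -1.88 (rescue density) and 0.043 (KO density), and 0.010 on the day 1 slide of KO cells. The day block changed no call but the 5 named in the report.

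Leaving out each culture in turn gave 15 to 20 calls and medians of 0.17 to 0.29 in sparse KO minus rescue, 41 to 43 and 1.92 to 2.13 in dense, 44 to 46 and -1.68 to -1.53 in rescue density, 0 to 2 and -0.021 to 0.13 in KO density, and 37 to 41 and 1.71 to 1.90 in the interaction.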
